A study of Mus musculus with 12 samples.

Results

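To examine how the complement transcripts of myotube cultures responded to STEM, 8 genes were followed in the deposited counts. These were the protease genes C1ra, C1s1 and Masp1, the component genes C3 and C4b, and the regulator genes Serping1, Cd55 and Cd59a. They were taken by symbol from the 55487 Ensembl genes in the table, through a GENCODE annotation of mouse genome build GRCm38, and all 8 symbols matched 1 gene each. The cells were C2C12, a mouse myoblast line that forms multinucleated myotubes in low serum, so all libraries come from a single line and not from animals. After 5 days of differentiation in DMEM with 2% horse serum, the control myotubes received 4% horse serum and the treated myotubes 4% STEM for 24 h, both with penicillin and streptomycin, and 6 libraries were made from each group. STEM, the secreted product of partially differentiated human pluripotent stem cells, took the place of horse serum, so the effect of adding STEM and that of withdrawing serum cannot be told apart. The labels do not say whether the libraries of a group came from separate cultures, so the spread between them may be technical. Library totals ran from 13285472 to 18254882 counts with horse serum and from 14909485 to 24536264 counts with STEM. Horse serum library 6 stood apart from the others in its group, with the lowest level of myotube markers (given with the other markers). The comparisons of the 6 expressed members between the groups are therefore given with and without it.

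Complement is a cascade of plasma proteins that marks surfaces for uptake and can open pores in membranes. In the classical pathway the recognition protein C1q carries the proteases C1r and C1s, and C1r activates C1s, which then cleaves C4 and C2. In the lectin pathway the MASP proteases take this place beside mannose-binding lectin, ficolins and collectins, and both routes lead to cleavage of the central component C3. Host cells limit the cascade with the soluble C1 inhibitor (Serping1), which inactivates C1r, C1s and the MASPs, with the membrane protein CD55, which speeds decay of the enzymes that cleave C3, and with CD59, which blocks the final membrane pore. The liver makes most plasma complement, and muscle cells are among the cells known to make some components locally.

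C1ra and C1s1 are neighbours on chromosome 6. C1ra (ENSMUSG00000055172) lies on the plus strand from 124512405 to 124523443 and C1s1 (ENSMUSG00000038521) on the minus strand from 124530345 to 124542359, so the genes point toward each other across 6.90 kb and their start regions lie at opposite ends of the pair. The upstream region of C1s1 is shown because, of the 3 members called lower below, it alone had a RefSeq window here. It is the 250 bases before the first of 2 RefSeq starts (build GRCm38.p6), chr6:124542360-124542609 on the minus strand, written 5′ to 3′, with capitals for the letters TTGCNNAA of the C/EBP motif on either strand.
C1s1: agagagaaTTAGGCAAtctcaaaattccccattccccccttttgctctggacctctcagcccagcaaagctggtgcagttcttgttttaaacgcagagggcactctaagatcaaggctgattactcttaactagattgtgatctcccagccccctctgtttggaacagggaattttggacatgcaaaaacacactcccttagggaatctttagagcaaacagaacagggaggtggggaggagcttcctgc
The region held TTAGGCAA, beginning 242 bases before the start, which matches the motif when read on the strand opposite to the one printed. The second C1s1 start lies 38 bases further into the gene, and its window held none of the 4 motifs searched. Of the 300-base windows of all RefSeq starts, which add 50 bases after the start, 10.8% held the C/EBP letters, 8.30% the STAT letters TTCNNNGAA, 3.44% the IRF letters GAAANNGAAA and 0.411% the NF-kB letters GGGANTTTCC, on either strand. The other members with a window were C1ra, C3, Cd55 and Cd59a. C3 held TTGCGAAA at 45 bases before the start, Cd59a held the IRF match GAAAGGGAAA at 187 bases before the start, and Cd55 held none of the 4 motifs. The C1ra window held a STAT match (TTCCCTGAA) and a C/EBP match (TTATGCAA), both after the RefSeq start, which GENCODE places within the 5′ UTR, so that 216 of the 250 bases before it lie inside the annotated gene and are not shown. The windows of Masp1, Serping1 and C4b were not used here. These matches are letters in a window and nothing more.

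The remaining members lie apart. Serping1 (ENSMUSG00000023224, 84765387 to 84775444) and Cd59a (ENSMUSG00000032679, 104095801 to 104115354) are on chromosome 2, C3 (ENSMUSG00000024164, 57203970 to 57228136) and C4b (ENSMUSG00000073418, 34728380 to 34743882) on chromosome 17, Masp1 (ENSMUSG00000022887, 23449417 to 23520815) on chromosome 16 and Cd55 (ENSMUSG00000026399, 130439027 to 130462744) on chromosome 1. All 8 are annotated as protein coding. Several have close copies, and reads that match both copies cannot be placed. Of all 100-base windows in the C1ra transcripts, 34.5% also occurred in C1rb, against 15.2% of C4b windows in C4a, 6.87% of C1s1 windows in C1s2, 4.19% of Cd55 windows in Cd55b and 0.276% of Cd59a windows in Cd59b. The levels of C1ra and C4b are uncertain for that reason. The paper describes paired reads longer than these windows, so the share of reads affected was not measured. An antisense gene, Gm16567, overlapped 18.4% of the C1s1 exon bases, and whether the counting used the strand is not given in the sources used here.

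**Figure D1:**
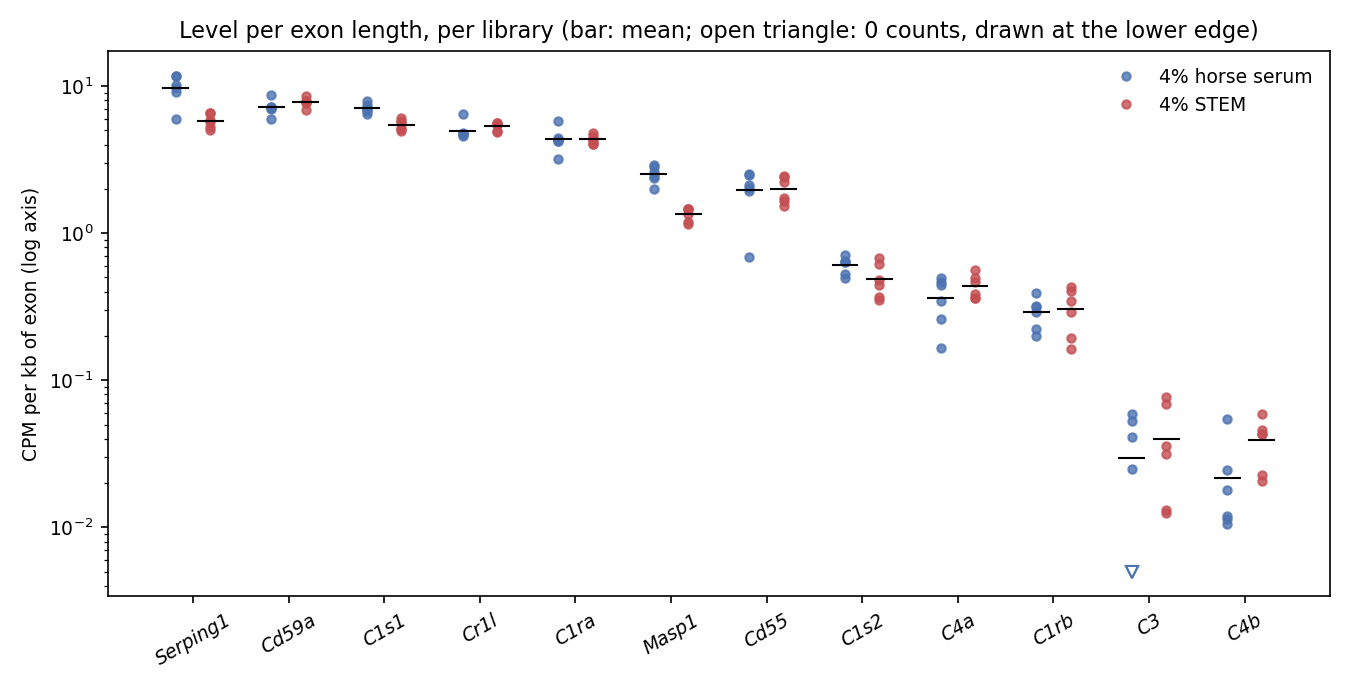
Level of the 8 members, their copies and the regulator Cr1l, as CPM per kb of exon on a log axis, with a point for each of the 6 libraries per group (blue, 4% horse serum; red, 4% STEM) and a bar for the mean. C3 and C4b sit at the bottom, with no library above 0.0766 CPM per kb, while Serping1, Cd59a, C1s1 and C1ra lie between 3.19 and 11.8 in every library.

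Myotube cultures in horse serum expressed 6 of the 8 genes above the filter on low counts. The order of their levels was compared as CPM per kb of exon. CPM is a gene's count relative to its library's total, scaled by edgeR's TMM factors. Serping1 stood highest, with a mean of 9.74 CPM per kb (range 5.99 to 11.8, n = 6). Cd59a (mean 7.20, range 5.93 to 8.72) and C1s1 (mean 7.10, range 6.44 to 7.88) followed. C1ra (mean 4.36, range 3.19 to 5.80) came next, ahead of Masp1 (mean 2.53, range 2.00 to 2.93) and Cd55 (mean 1.97, range 0.685 to 2.53). Serping1, Cd59a and C1s1 overlapped in range, as did Masp1 and Cd55, while all 6 C1ra libraries lay below all 6 C1s1 libraries and above all 6 Masp1 libraries. The order in both groups rests on all annotated exon bases, 9.833 kb for Masp1, which had the highest mean CPM of the members in horse serum (24.9). As 34.5% of C1ra windows also occurred in C1rb, the place of C1ra below C1s1 is uncertain. With STEM, Cd59a had the highest mean (7.81 CPM per kb, range 6.92 to 8.61), its 6 libraries above those of Serping1 (mean 5.83, range 5.06 to 6.58) and C1s1 (mean 5.47, range 4.94 to 6.07). C1ra (mean 4.34, range 4.04 to 4.80) followed, and Cd55 (mean 2.00, range 1.54 to 2.45) was then above Masp1 (mean 1.35, range 1.16 to 1.47) in every library.

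The component genes C3 and C4b were near the limit of detection in both groups. C3 had 0 to 5 counts per library with horse serum and 1 to 6 with STEM, 14 and 21 counts in all. Horse serum libraries 2 and 6 held no C3 count, which allows up to 0.231 and 0.153 CPM at 3 counts. C4b had 1 to 4 counts with horse serum and 2 to 6 with STEM, 11 and 23 counts in all. Neither gene entered the test across genes, both overlapped between the groups, and the exact permutation test of log2 CPM (two-sided, 6 libraries against 6) gave p = 0.465 for C3 and p = 0.0628 for C4b. At this depth no difference in C3 or C4b was detected. C4a, the copy of C4b that this annotation lists as a processed transcript, held more reads, with 15 to 56 counts per library with horse serum and 35 to 55 with STEM. Its log2 fold change was 0.25 (95% interval -0.23 to 0.73, adjusted p = 0.416 in edgeR), and the sum of C4b and C4a gave 0.29 (adjusted p = 0.319 in edgeR).

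Next, the 6 expressed members were compared between STEM and horse serum with edgeR's quasi-likelihood test, adjusted by Benjamini-Hochberg over all 14175 genes tested. STEM-treated cultures had lower Masp1, Serping1 and C1s1, so 3 of 6 members fell. Of all tested genes, 17.4% were called lower, 18.9% higher and 36.4% in either direction. The same 3 were called lower without library 6, beside 24.5% of all genes (50.8% in either direction). No member was called higher in edgeR, in limma-voom, which called 18.7% of all genes higher, or in DESeq2, which called 14.8% higher, and at an unadjusted p of 0.05 the edgeR count was also 0. The median log2 fold change of the 6 members was -0.19, beside 0.01 over all genes tested. C1ra, Cd55 and Cd59a did not pass the test.

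Masp1, which encodes the lectin pathway proteases MASP-1 and MASP-3 that gene counts do not separate, changed most. It stood at 19.6 CPM in the lowest, 24.8 in the median and 28.8 in the highest horse serum library, and at 11.4, 13.9 and 14.5 CPM with STEM. The groups did not overlap, and horse serum library 6 was the lowest of its group. Its fitted change on the log2 scale was -0.90 ± 0.0963 (SE, 95% interval -1.10 to -0.69, adjusted p = 7.62e-06 in edgeR), a level 1.86-fold lower with STEM. Without library 6 it was -0.96 (adjusted p = 1.22e-08 in edgeR). Of all tested genes, 8.52% were lower with STEM without overlap.

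C1s1, the protease that cleaves C4 and C2, fell by less. It ran from 20.2 CPM through a median of 22.0 to 24.7 CPM with horse serum, and from 15.5 through 17.0 to 19.0 CPM with STEM. Every STEM library lay below every horse serum library. Its log2 change was -0.37 ± 0.0695 (SE, 95% interval -0.52 to -0.23, adjusted p = 0.000724 in edgeR), or 1.30-fold lower, and -0.40 without library 6 (adjusted p = 6.67e-05 in edgeR).

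Its partner C1ra did not pass the test. C1ra ran from 9.51 CPM through 12.7 to 17.3 CPM with horse serum and from 12 through 12.7 to 14.3 CPM with STEM. The lowest and highest values both belonged to horse serum libraries, 1 and 6 in turn, and the STEM libraries lay between them. The log2 fold change was -0.01 (95% interval -0.25 to 0.22, adjusted p = 0.941 in edgeR) and 0.09 without library 6 (95% interval -0.09 to 0.27, adjusted p = 0.407 in edgeR). The copies gave wider intervals, with a log2 fold change of 0.09 for C1rb (-0.47 to 0.66) and -0.32 for C1s2 (-0.72 to 0.08), and neither was called.

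Serping1, the gene of the C1 inhibitor, fell in the direction of the proteases Masp1 and C1s1. With horse serum it ran from 13.9 CPM through 23.0 to 27.5 CPM, and with STEM from 11.8 through 13.4 to 15.3 CPM. Library 6, at 13.9 CPM, was the only horse serum library within the STEM range, and the other 5 lay at 21.1 CPM or above. The log2 change of Serping1 was -0.73 ± 0.140 (SE, 95% interval -1.03 to -0.43, adjusted p = 0.00101 in edgeR), 1.66-fold lower. Without library 6 it was -0.84 ± 0.0863 (SE, adjusted p = 1.83e-07 in edgeR) and the groups did not overlap, as for 16.5% of the genes tested in those 11 libraries, which were likewise lower.

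**Figure D2:**
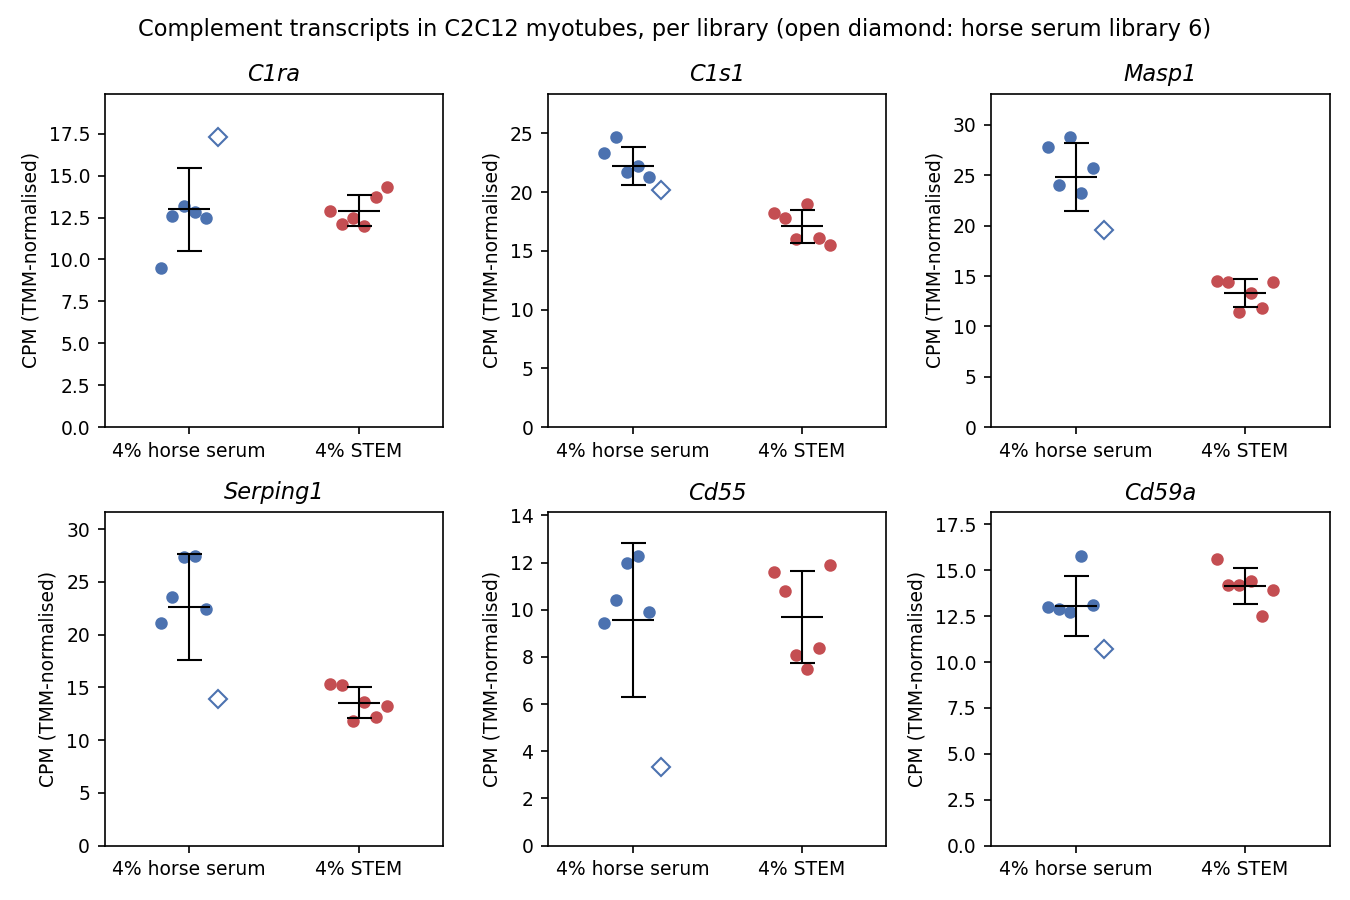
CPM of the 6 expressed members in each library, with horse serum in blue, STEM in red, horse serum library 6 as an open diamond, and the mean ± SD of 6 libraries in black. Masp1 and C1s1 do not overlap between the groups, Serping1 overlaps only through library 6, and C1ra, Cd55 and Cd59a overlap.

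The membrane regulators gave no call. Cd55 ran from 3.33 CPM through 10.1 to 12.3 CPM with horse serum and from 7.47 through 9.57 to 11.9 CPM with STEM. Library 6 held the value of 3.33 CPM, and the next horse serum library stood at 9.44 CPM. The log2 fold change was 0.04 (95% interval -0.50 to 0.57, adjusted p = 0.921 in edgeR). Without library 6 the sign turned, to -0.15 (95% interval -0.41 to 0.12, adjusted p = 0.344 in edgeR), and the SD of the horse serum group went from 3.26 to 1.28 CPM. Cd59a, the widely expressed mouse CD59 gene, had an SD of 1.61 CPM with horse serum and 1.29 CPM without library 6. It ran from 10.7 CPM through 12.9 to 15.8 CPM with horse serum and from 12.5 through 14.2 to 15.6 CPM with STEM, with a log2 fold change of 0.12 (95% interval -0.06 to 0.30, adjusted p = 0.291 in edgeR). Without library 6 the log2 fold change of Cd59a was 0.07 (95% interval -0.09 to 0.23, adjusted p = 0.479 in edgeR). Changes of Cd55 up to the bounds of its interval could not be seen with these libraries.

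As gene counts of 1 library share its scaling, members were also set against each other within each library, per kb of exon and without a test. The ratio of C1ra to its inhibitor Serping1 ran from 0.351 to 0.436 in horse serum libraries 1 to 5 and from 0.620 to 0.874 with STEM, while library 6 stood at 0.969. The ratio of C1s1 to Serping1 ran from 0.588 to 0.820 in the same 5 libraries and from 0.869 to 1.04 with STEM, with library 6 at 1.08. For C1ra to C1s1 the values were 0.428 to 0.641, 0.665 to 0.972 and 0.900. In these 3 ratios, of which the third is the quotient of the others, the 5 horse serum libraries lay below the STEM libraries and library 6 lay among or above them. Masp1 to Serping1 overlapped with or without library 6, at 0.200 to 0.334 with horse serum and 0.224 to 0.258 with STEM. So did Cd55 to Cd59a, at 0.271 to 0.355 in libraries 1 to 5, 0.116 in library 6 and 0.194 to 0.319 with STEM.

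**Figure D3:**
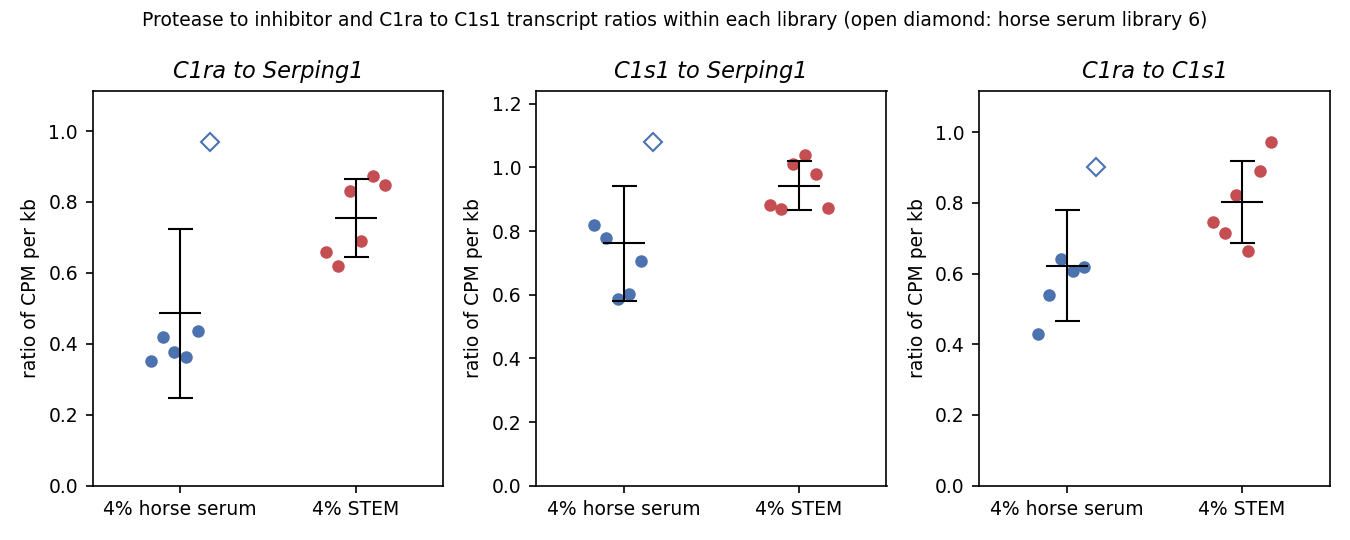
Ratio of CPM per kb of exon within each library for C1ra to Serping1, C1s1 to Serping1 and C1ra to C1s1, with the mean ± SD of 6 libraries in black and horse serum library 6 as an open diamond. Apart from library 6, every horse serum library lies below every STEM library in each panel.

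The 8 members were then placed in a wider list of 58 complement genes, of which 17 had no count in any library and 16 were tested. Of these 16, 6 fell and 0 rose with STEM in edgeR, beside 17.4% of all genes tested called lower and 18.9% higher. In either direction 37.5% were called, near the 36.4% of all genes tested. Cfp and Itgb2 were higher at an unadjusted p under 0.05 (a count of 2), limma-voom called 0 higher and DESeq2 called 1, Itgax. The median log2 fold change of the tested list was -0.04, against 0.01 for all genes. Without library 6, 5 of the 16 were called lower and 2 higher, beside 24.5% and 26.3% of all genes tested. The recognition genes C1qa, C1qb and C1qc had no count at all, and the mannose-binding lectin genes Mbl1 and Mbl2 and the terminal component genes C6, C8a, C8b and C9 were also among the genes without a count.

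By role, the calls among genes outside the 8 were as follows. Clu, whose product clusterin binds the terminal complex, had a log2 fold change of -0.62 (adjusted p = 0.0353 in edgeR) on 10 to 34 counts, and this call was lost without library 6, where the log2 fold change was -0.52 (adjusted p = 0.0671 in edgeR). Among the membrane regulators, 0 of 4 tested were called in edgeR, limma-voom or DESeq2, and 0 had an unadjusted p under 0.05 in edgeR, beside 36.4% of all genes called in edgeR. With 4 genes this count was not read further. Cr1l, the rodent gene known as Crry, which limits cleavage of C3 on the cell surface, had a log2 fold change of 0.10 (95% interval -0.07 to 0.27), and was called only without library 6 (0.19, adjusted p = 0.00295 in edgeR).

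Colec12, a collectin family scavenger receptor, fell from 246 ± 25.5 CPM to 189 ± 8.65 CPM (SD, n = 6), or -0.38 on the log2 scale (adjusted p = 0.000324 in edgeR). C8g, which encodes the gamma chain of C8, had 11 to 23 counts per library with horse serum and 4 to 12 with STEM, and changed by -1.22 ± 0.277 on the log2 scale (SE, adjusted p = 0.00314 in edgeR). The genes of the other C8 chains had no count. Of the receptors, only Itgb2, the shared chain of the beta-2 integrins, passed the filter for edgeR. Its log2 fold change was 0.68 (adjusted p = 0.0766 in edgeR, and 0.0407 without library 6). Itgb2 ran from 0.77 to 2.3 CPM with horse serum and from 1.75 to 5.09 CPM with STEM, where library 10 was highest. The groups overlapped with and without library 6.

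**Figure D4:**
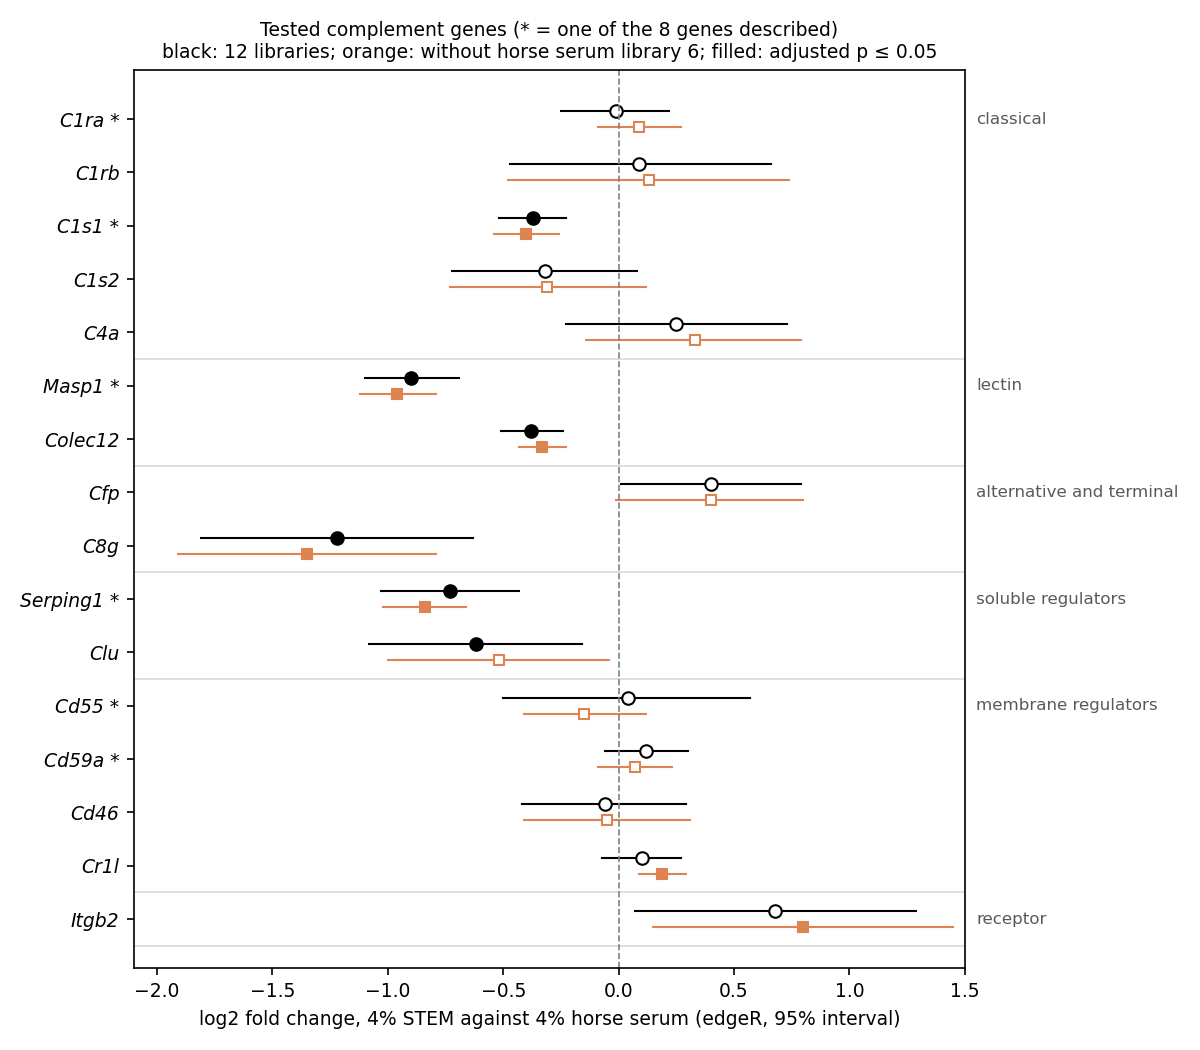
Log2 fold change of the 16 tested complement genes, 4% STEM against 4% horse serum, with 95% intervals from edgeR, for all 12 libraries (black circles) and without horse serum library 6 (orange squares), filled where the adjusted p is 0.05 or less. Masp1, C1s1 and Serping1 are lower in both fits, while C1ra, Cd55 and Cd59a cross 0 in both.

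The culture was checked against marker genes. The summed level of 10 myotube genes ran from 20100 to 22500 CPM in horse serum libraries 1 to 5, was 13300 CPM in library 6 and ran from 17900 to 23400 CPM with STEM. Of these 10 genes, 1 was called higher with STEM and 2 lower, beside 18.9% and 17.4% of all genes tested. Mymk was higher (log2 fold change 0.36, adjusted p = 0.000361 in edgeR). Lower were Myh8 (-1.25, adjusted p = 0.0357 in edgeR) and Myog (-0.29, adjusted p = 0.00404 in edgeR). Of 10 macrophage markers, Adgre1 and Tyrobp had no count and Ptprc, Laptm5 and Lyz2 had at most 3 in any library. The rest reached more, with 39 to 87 counts per library for Cd68, 1 to 30 for Csf1r and 3 to 16 for Cd163. Itgam had 1 to 9 and Fcer1g 0 to 7. Of the 100-base windows of Itgam, 64.3% also occurred in Gm49368, so its counts may miss reads. Cd68 carried most of the macrophage sum and was not called (log2 fold change 0.12, adjusted p = 0.61 in edgeR). Csf1r (horse serum mean 0.287 CPM, STEM mean 0.915 CPM) and Itgam (0.295 and 0.207) were not tested. All 10 together ranged from 3.48 to 5.75 CPM across the horse serum libraries and from 4.89 to 6.12 CPM across the STEM libraries. The 7 fibroblast markers summed to 19.6 to 32.3 CPM with horse serum (32.3 in library 6) and 35.4 to 39.1 CPM with STEM, with Thy1, Lum and Tcf21 at 3 counts or fewer. The 6 markers of unfused and reserve cells summed to 480 to 528 CPM in libraries 1 to 5, 608 CPM in library 6 and 565 to 620 CPM with STEM. Cdh15 carried most of this sum, with means of 349 and 480 CPM, and the 6 genes moved both ways. Cdh15 and Msc were called higher with STEM, while Cd34 (means of 79.6 and 47.4 CPM, log2 fold change -0.75, adjusted p = 1.17e-05 in edgeR), Spry1 (-0.63) and Myf5 (-0.42) were called lower. Of the fibroblast markers, 2 of 4 tested were called higher and 0 lower, beside 18.9% of all genes tested called higher. These were Dpt (means of 2.99 and 6.35 CPM) and Pi16 (0.712 and 5.21 CPM). Pdgfra and Dcn, with the highest means of the list, were not called. Their log2 fold changes were 0.41 (adjusted p = 0.112 in edgeR) and -0.13 (adjusted p = 0.552 in edgeR). The part of these differences in the complement results was not tested, and in bulk RNA fewer cells of a type cannot be told apart from less RNA per cell.

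Finally, the tested genes whose log2 CPM followed each member most closely over the 12 libraries were listed by Pearson's r, as a description that includes the difference between groups. Cd55 was closest to Myh1, a fast myosin heavy chain (r = 0.990, and 0.962 over 11 libraries without library 6), and Pygm, the muscle glycogen phosphorylase (0.975 and 0.942). Masp1 was closest to Haus4 (0.996) and Cyld (0.982), Serping1 to Ccnl2 (0.981) and Calcoco1 (0.973), and C1s1 to Dazap2 (0.967) and Ing1 (0.966). C1ra was closest to Purb (0.967) and Numa1 (0.960), and Cd59a to Zfp830 (0.945) and Tnfrsf19 (0.924). In no case was another member the closest gene, which among 14175 genes tested says little about the members. Masp1 and Serping1 had r = 0.91 with each other (0.95 without library 6). C1s1 had r = 0.89 with Masp1 (0.89 without library 6) and 0.85 with Serping1 (0.89). All 3 were called lower with STEM, so these values include that difference. The other member pairs ran from -0.51 (C1ra and Cd55) to 0.69 (Cd55 and Cd59a) over the 12 libraries.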

How the data were processed

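Raw read counts per Ensembl gene were deposited by the authors for 12 libraries of C2C12 myotubes, with no normalization. The libraries were stranded total RNA depleted of ribosomal RNA. The submitters' processing notes name STAR 2.7.3a, featureCounts 1.6.3, DESeq2 1.26.0 and build GRCm38, and the annotation release and strand setting of the counting are not given in the sources used here. Symbols, coordinates and exon lengths came from GENCODE M21 (GRCm38), which held 55227 of 55487 genes. The members, gene lists, tests and alternatives were chosen with earlier results of these data known.

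Differential expression was tested with edgeR 4.0.16 in R 4.3.3 (TMM, filterByExpr, robust glmQLFit and glmQLFTest) on all 12 libraries and on 11 without horse serum library 6, with 14175 and 14267 genes tested and a call at an adjusted p of 0.05 or less. DESeq2 1.42.0 (the study's tool) and limma-voom (limma 3.58.1) were alternatives, with other scalings and filters, sums over copies, and each library left out. The edgeR, DESeq2 and limma-voom tests of 12 libraries were checked on simulated counts with known changes. CPM used TMM totals, and log2 CPM a prior count of 2. Exact permutation tests were two-sided on the absolute difference of means. Ratios of C3 to other members were not computed, since 2 libraries held no C3 count. Limits at 3 counts cover counting error only. Within groups, library pairs differed by a chi-square per degree of freedom of 3.29 to 68.5, so none looked like a repeat deposit. The text names the 8 members, their copies, the called genes of the wider list (1 gene of that list is not reported here and was left out of its counts) and the 2 genes closest to each member. Genes listed at 0 counts, Cfp, Itgb2, Itgax, C4a and Cr1l were named after their values were seen, where the first rule did not name them. The single marker genes given beside their sums were also named after their values were seen.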

Additional observations from a re-analysis of the deposited data

Results flagged for a closer look

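Each tested member was examined for a library far from the rest of its group, in 12 groups of 6 libraries, and 1 value stood out. Chance gives about 1 group in 20, and the groups share their libraries, so 1 in 12 was not read as an excess. Cd55 in horse serum library 6 was at 3.33 CPM, and its nearest neighbour in the group was at 9.44 CPM, a gap of 0.685 of the range of the group. The summed level of the myotube markers was also lowest in that library, at 13300 CPM against 20100 CPM or more in the other horse serum libraries. The part of this difference in the Cd55 value was not tested.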

How the results depend on the processing

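No paired analysis was possible because the library numbers, 1 to 6 with horse serum and 7 to 12 with STEM, are shared by no libraries of the 2 groups. The falls of Masp1, Serping1 and C1s1 were called in all alternatives, with log2 fold changes from -0.96 to -0.85, from -0.84 to -0.67 and from -0.40 to -0.34 as each library was left out. The member counts stayed at 3 lower and 0 higher. C1ra and Cd55 were called in none, and their sign turned with small values, between -0.09 and 0.09 for C1ra and between -0.15 and 0.12 for Cd55 as libraries were left out, and to 0.00 for C1ra with total counts only. In the wider list the count of genes higher with STEM went from 0 to 1 without a filter on low counts and to 1 with DESeq2, and lay between 0 and 2 with a library left out, the 2 being Cr1l and Itgb2 without horse serum library 6. The Clu call was lost without horse serum libraries 2, 3, 4 or 6 or STEM libraries 8, 9 or 11 (log2 fold changes from -0.63 to -0.52 beside -0.62, adjusted p from 0.0506 to 0.0786 in edgeR), in DESeq2 and without the filter. Other scalings moved the median of all genes by at most 0.0202 in size. C3 and C4b entered only the fit without a filter (log2 fold changes 0.41 and 0.86, adjusted p = 0.697 and 0.362 in edgeR) and DESeq2 (0.42 and 0.89, adjusted p = 0.729 and 0.335). The causes of these changes were not tested. Of the 58 listed genes, 42 lay below the filter and were not compared in the main edgeR fit. Among them, 17 had no count in any library. Whether depth or absent expression kept these genes low was not tested.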
